A study of Mus musculus with 180 samples.

Results

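The genes described here are 10 genes of MHC class I antigen presentation: *H2-K1*, *H2-D1*, *B2m*, *Tap1*, *Tap2*, *Tapbp*, *Psmb8*, *Psmb9*, *Psmb10* and *Nlrc5*. They were chosen by symbol and by no cut on their values, although earlier results of these data were known. Each had 1 row among the 45070 genes of the deposited table. RNA-seq of mouse bone marrow-derived macrophages gave 180 samples, 3 for each of 58 clinical kinase inhibitors (CKIs) and 6 for the vehicle DMSO. All groups shared the wild type genotype, and per the study's methods the marrow came from male C57/BL6 mice 6 to 8 weeks old. Cells of every group received a CKI or DMSO for 1 h and then LPS at 10 ng/ml for 2 h, so no group was left without LPS. Each CKI was used at 1 concentration of its own, and the methods call the 3 replicates biologically independent but do not say whether marrow was pooled. The labels number the samples of a condition 1 to 3 and divide the DMSO samples into 2 sets of 3, and the CKIs that go with each set are not named.

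MHC class I molecules carry peptides from the inside of a cell to its surface, where CD8 T cells read them. The proteasome cuts the peptides, the transporter TAP moves them into the endoplasmic reticulum, and tapasin helps to load them onto a heavy chain paired with beta-2-microglobulin. In macrophages interferons raise many of these genes through IRF1 and the transactivator NLRC5, which acts on a promoter module of CRE-like and CCAAT elements next to a kappaB site and an interferon response element.

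The promoter letters are shown because *B2m* did not vary with *H2-K1* and *H2-D1*, the heavy chains its product pairs with, and because *Tap1* was the member that fell most. RefSeq promoter windows on GRCm38.p6, which has the coordinates of mm10, matched 8 of the 10 members, and *Tap2* and *Nlrc5* were not matched. Each sequence is the 250 bases before the transcription start on the gene's own strand. Capitals mark the letters AANNGAAA (an interferon regulatory factor core), GGGANTNNC (kappaB-like), TGACG (the core of a CRE) and CCAAT, each searched on both strands.
*H2-K1*, minus strand, chr17:34000348-34000597: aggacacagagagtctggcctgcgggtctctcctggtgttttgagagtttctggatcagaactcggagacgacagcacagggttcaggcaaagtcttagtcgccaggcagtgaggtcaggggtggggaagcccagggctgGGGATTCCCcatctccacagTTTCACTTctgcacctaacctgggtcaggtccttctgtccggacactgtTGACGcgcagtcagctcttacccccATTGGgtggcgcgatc
*H2-D1*, plus strand, chr17:35262844-35263093: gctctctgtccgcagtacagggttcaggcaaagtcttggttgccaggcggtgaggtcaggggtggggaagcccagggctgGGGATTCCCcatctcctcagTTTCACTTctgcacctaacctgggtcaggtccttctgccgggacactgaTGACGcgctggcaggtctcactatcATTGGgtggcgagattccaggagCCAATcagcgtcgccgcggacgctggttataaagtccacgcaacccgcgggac
*B2m*, plus strand, chr2:122147437-122147686: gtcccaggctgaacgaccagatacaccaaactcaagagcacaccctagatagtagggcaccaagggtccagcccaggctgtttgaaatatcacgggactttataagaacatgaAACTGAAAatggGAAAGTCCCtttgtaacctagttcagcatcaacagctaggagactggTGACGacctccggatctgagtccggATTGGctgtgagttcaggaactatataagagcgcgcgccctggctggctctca
*Tap1*, plus strand, chr17:34187306-34187555: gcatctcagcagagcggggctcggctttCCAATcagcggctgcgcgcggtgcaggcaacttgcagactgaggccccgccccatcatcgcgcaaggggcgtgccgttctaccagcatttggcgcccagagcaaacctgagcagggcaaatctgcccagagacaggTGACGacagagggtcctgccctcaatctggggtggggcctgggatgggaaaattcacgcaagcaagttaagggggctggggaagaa

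In *H2-K1* and *H2-D1* the kappaB-like letters, the interferon core, the CRE core and CCAAT stood in the same order and at the same spacing, with 20, 49 and 25 bases between the first bases of neighbouring matches. *B2m* held all 4 as well, with the interferon core on the other side of the kappaB-like letters. *Tap1* held the CRE core and CCAAT but not the other 2. *Psmb9*, a subunit of the immunoproteasome, starts on the opposite strand with 225 bases between its start and that of *Tap1*, so both genes share this stretch. Of the 8 matched promoters, 3 held the interferon core, 3 the kappaB-like letters, 5 the CRE core and 6 CCAAT. Among all 32851 promoter windows of this length the shares were 21.3%, 11.7%, 17.8% and 33.8%. The CRE core and CCAAT of *Psmb9* are the same bases as those of *Tap1*, and were counted for both genes. The marked stretches of *H2-K1* and *H2-D1* are also much alike. The 8 promoters are thus not independent, and no excess can be read from these counts. The letters TTCNNNGAA, to which STAT dimers bind, were in 7% of all windows and among the members in that of *Psmb8* alone. A match describes letters only.

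All 10 members passed the filter of a mean normalized value of at least 10, which left 12714 genes. Normalized values are reads on exons that the authors scaled between samples, so levels are compared between genes only per kilobase of exon. On that scale *B2m*, the light chain, was the highest, with a median of 37456 over the 6 DMSO samples. The heavy chain *H2-D1* followed at 24565 and *H2-K1* at 11113. *Tapbp*, which encodes tapasin, stood at 3398, and the immunoproteasome subunits *Psmb8*, *Psmb10* and *Psmb9* at 2948, 1220 and 972. The TAP subunits were lower, with *Tap1* at 823 and *Tap2* at 414, and *Nlrc5* was far below at 34.5.

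The totals of the normalized values lay between 9477340 and 12273349 over the 180 samples. The share of mitochondrially encoded transcripts lay between 0.76% and 1.94% in DMSO and between 0.525% and 4.47% with a CKI, and its median was 1.93% in samples numbered 1, 1.34% in those numbered 2 and 1.09% in those numbered 3. All 7 macrophage markers were present, with a summed value of 82123 to 185730 in DMSO and 71409 to 211689 with a CKI. The summed markers of T cells, B cells and mast cells did not exceed 5 in any sample, and *Cd3e* and *Cpa3* had a median of 0. Those of neutrophils summed to 166 to 517 in DMSO and 120 to 1403 with a CKI, with *Ly6g* at a median of 0. Those of dendritic cells summed to 61 to 92 and 33 to 162, and those of fibroblasts to 19 to 147 and 3 to 222. In these bulk samples fewer cells of a type and less RNA per cell cannot be told apart.

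Over all CKIs few members passed the test, and the falls were mostly in *Tap1* and the 2 heavy chains. CKI and DMSO samples were compared by limma on log2(normalized value + 1), and p-values were adjusted by the Benjamini-Hochberg method over the 12714 genes. Of 580 comparisons of a member with a CKI, 14 were lower and 5 higher at an adjusted p under 0.05. These are shares of 2.41% and 0.862%, against a background over all genes and CKIs of 1.65% lower and 2.52% higher. Limma's unadjusted p was under 0.05 in 101 of the 580. The matching share over all genes is given below only for single CKIs, so this count is no result about the members. After a further scaling to the median ratio between samples the members split into 23 lower and 2 higher, against a background of 2.4% and 1.66%. With the other 57 CKIs as the reference in place of DMSO the split was 6 lower and 9 higher, against 1.54% and 1.12%. Without both DMSO samples numbered 2 it was 2 lower and 5 higher, against 0.809% and 1.02%. In these last 2 fits the members' share of lower calls was under that of all genes. The 19 calls came from 9 CKIs, and the other 49 had none.

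Among the members, *Tap1* was lower with 5 CKIs, *H2-K1* with 4, *H2-D1* with 3, and *Tap2* and *Nlrc5* with 1 each. *B2m* and *Nlrc5* were higher with 2 CKIs each and *Tapbp* with 1. *Psmb8*, *Psmb9* and *Psmb10*, the 3 subunits that replace constitutive ones in the immunoproteasome, were called with none on the values as deposited. After the further scaling *Psmb8* and *Psmb9* were lower with BGT226. Over the 59 conditions together, limma's F test found a difference at an adjusted p under 0.05 in 7 of the 10 members, against 48.6% of all genes. The members not called were *B2m*, *Tapbp* and *Psmb8*. Without the samples numbered 1 the F test called 2 members, without those numbered 2 it called 5, and without those numbered 3 it called 3. The share of all genes called in these smaller fits was not recorded. It therefore cannot be told whether the members lost calls more than other genes did.

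**Figure D1:**
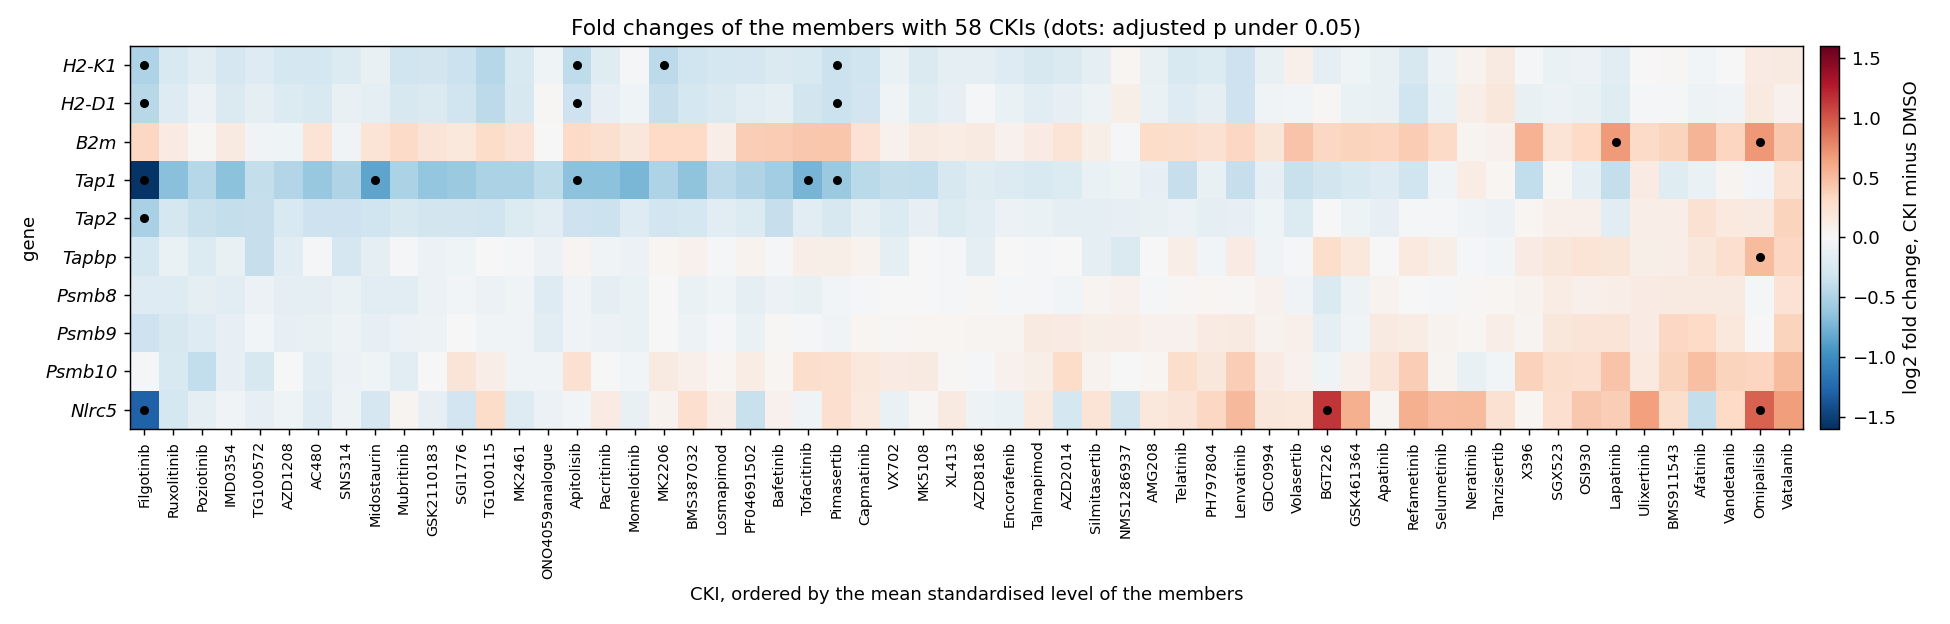
Log2 fold change (color) of the 10 members (rows) with each of the 58 CKIs (columns) against DMSO, ordered from the lowest to the highest mean standardised level of the members, with dots where the adjusted p was under 0.05. Of the 19 dots, 5 lie in the column of Filgotinib, and the rows of *H2-K1*, *H2-D1* and *Tap1* are mostly below 0 while that of *B2m* is mostly above 0.

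Before the single CKIs, the DMSO samples need a look, since every comparison used them. *Tap1* read 2488, 3570 and 2368 in samples 1 to 3 of the first DMSO set and 2358, 4838 and 2333 in those of the second. Both DMSO samples numbered 2 thus lay apart from the other 4, in either set. *H2-K1* read 23499 and 26535 in these 2 samples and 17284 to 18783 in the other 4, *H2-D1* 49400 and 60198 against 40963 to 43927, and *Tap2* 1470 and 1581 against 942 to 1073. *Psmb8* read 4156 and 4323 in them and 3302 to 3635 in the rest.

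The CKI samples numbered 2 were not high in the same way. The 58 CKI samples numbered 2 had a median *Tap1* value of 2256, close to the 2161 and 2359 of those numbered 1 and 3. Of these 58 samples, 0 lay above both DMSO samples of that number and 55 lay below both, and for *Tap2* all 58 lay below both. Among samples numbered 3, *Tap1* lay above both DMSO samples in 28 CKIs and below both in 27. *H2-K1* was below the mean of DMSO with 50 of the 58 CKIs, *H2-D1* with 51, *Tap1* with 52 and *Tap2* with 48. The mitochondrial share was 0.871% and 0.759% in the 2 DMSO samples, and its part in their levels was not tested.

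Other members set other DMSO samples apart. *B2m* read 51910 and 63125 in the DMSO samples numbered 1 and 27550 to 33941 in the other 4. The CKI samples had the same order, with a median of 55811, 41970 and 37399 for numbers 1, 2 and 3, and *B2m* was highest in number 1 in 56 of the 60 conditions, counting the DMSO sets as 2. *Tapbp* was highest in number 1 in 49 of 60. *Nlrc5* read 56 and 138 in the DMSO samples numbered 3 and 228 to 347 in the other 4, whereas the CKI samples numbered 3 had a median of 183 and none of them lay below both DMSO samples. No member was called between the 2 DMSO sets: limma called 0 of 12714 genes (0%) at an adjusted p under 0.05 and 310 at an unadjusted p under 0.05, of which 0 were members.

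**Figure D2:**
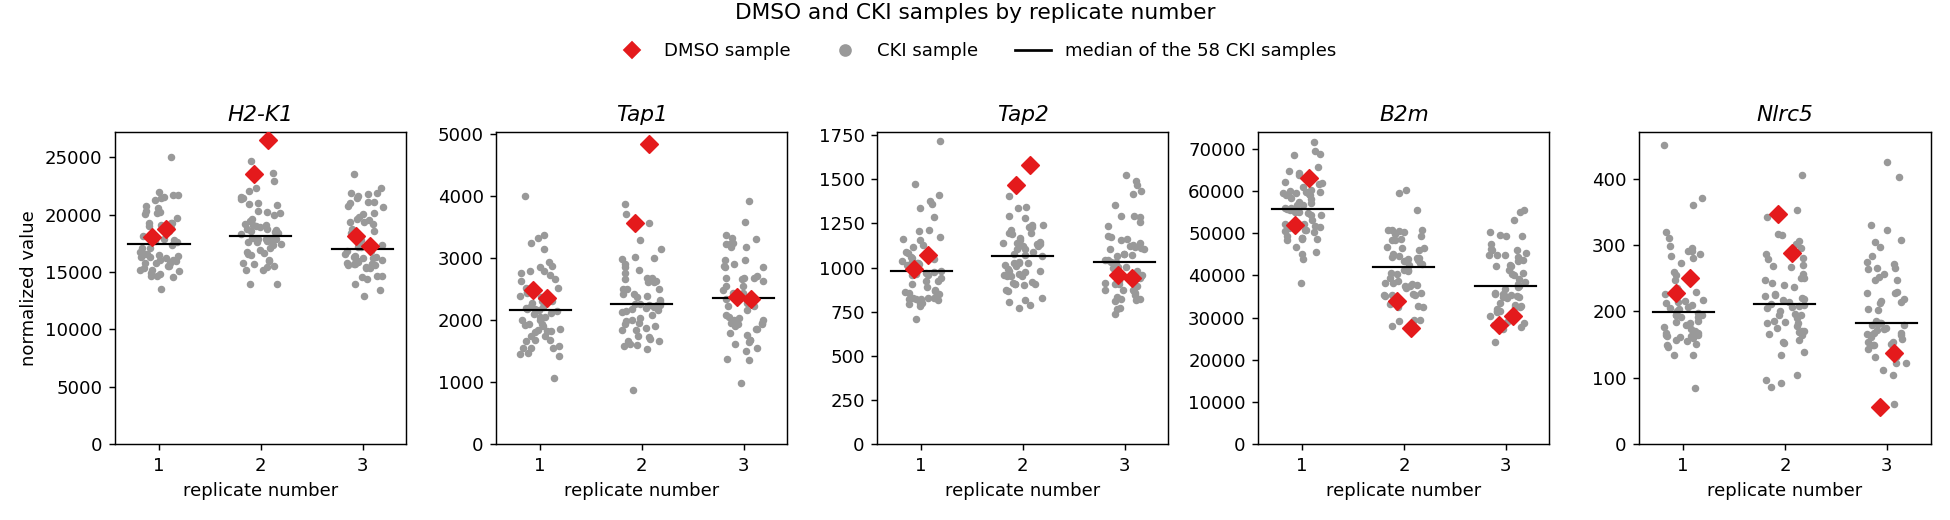
Normalized values of *H2-K1*, *Tap1*, *Tap2*, *B2m* and *Nlrc5* (vertical axes, from 0) by replicate number (horizontal axes), with DMSO samples as red diamonds, CKI samples as gray points and the median of the 58 CKI samples as a line. The DMSO samples numbered 2 stand at or near the top of their column for *H2-K1*, *Tap1* and *Tap2*, while *B2m* is highest in number 1 in DMSO and CKI samples alike.

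Filgotinib, an inhibitor of Janus kinases (JAK), lowered more members than any other CKI tested. Of the 10 members 5 fell, from both heavy chains to the transporter and the transactivator, against 14.6% of all genes lower with this CKI. The median log2 fold change of the members was -0.39, against -0.04 over all genes.

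*Tap1* read 1063, 872 and 983 with Filgotinib, against a lowest value of 2333, a median of 2428 and a highest value of 4838 in DMSO. The 3 samples lay below every one of the other 177 samples of the series, of which the lowest was 1359, with Midostaurin. This was a fold change of 0.338, a log2 fold change of -1.57 with a standard error of 0.21 (limma, Benjamini-Hochberg adjusted p = 3.52e-09). Within replicate numbers the log2 difference from the DMSO samples of that number lay between -2.25 and -1.19. It kept its call in all 27 alternatives, between -1.75 and -1.22.

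*Nlrc5*, the transactivator of class I genes, read 85, 86 and 61 with Filgotinib, against 56, 239.5 and 347 as the lowest, median and highest DMSO values. All 3 samples lay above the lowest DMSO sample and below the other 5. The log2 fold change was -1.29 with a standard error of 0.27 (limma, Benjamini-Hochberg adjusted p = 1.61e-04). Both genes had their lowest condition mean of all 59 with Filgotinib.

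The heavy chains fell less. *H2-K1* read 14918, 13925 and 13966 with Filgotinib, against 17284, 18448 and 26535 as lowest, median and highest in DMSO, so the groups did not overlap. Its log2 fold change was -0.50 with a standard error of 0.12 (limma, Benjamini-Hochberg adjusted p = 7.65e-04). *H2-D1* read 34945, 32187 and 33871 against 40963, 42645 and 60198, also without overlap, a log2 fold change of -0.44 with a standard error of 0.12 (limma, Benjamini-Hochberg adjusted p = 0.003). *Tap2*, the partner of *Tap1* in the transporter, read 826, 787 and 773 against 942, 1031.5 and 1581, again below every DMSO sample. Its log2 fold change was -0.52 with a standard error of 0.16 (limma, Benjamini-Hochberg adjusted p = 0.0104). Without both DMSO samples numbered 2 these 3 calls were lost, with log2 fold changes of -0.34, -0.31 and -0.32 and limma's adjusted p at 0.0515, 0.0808 and 0.227. *Tap2* also lost its call without the DMSO sample numbered 2 of the second set alone, at -0.43 (limma, adjusted p = 0.055).

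The other 5 members were not called with Filgotinib. The subunit *Psmb9* read 716, 650 and 585 against 678, 783.5 and 1073 in DMSO, and its log2 fold change of -0.33 missed the threshold (limma, Benjamini-Hochberg adjusted p = 0.057). *Psmb8*, *Tapbp*, *B2m* and *Psmb10* had log2 fold changes of -0.21, -0.29, 0.33 and -0.02. The 95% interval of each, over any CKI, spans 0.21 for *Psmb8*, 0.31 for *Tapbp*, 0.50 for *B2m* and 0.38 for *Psmb10* on either side. A fall of *B2m* like that of *Tap1* thus lay outside its interval.

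**Figure D3:**
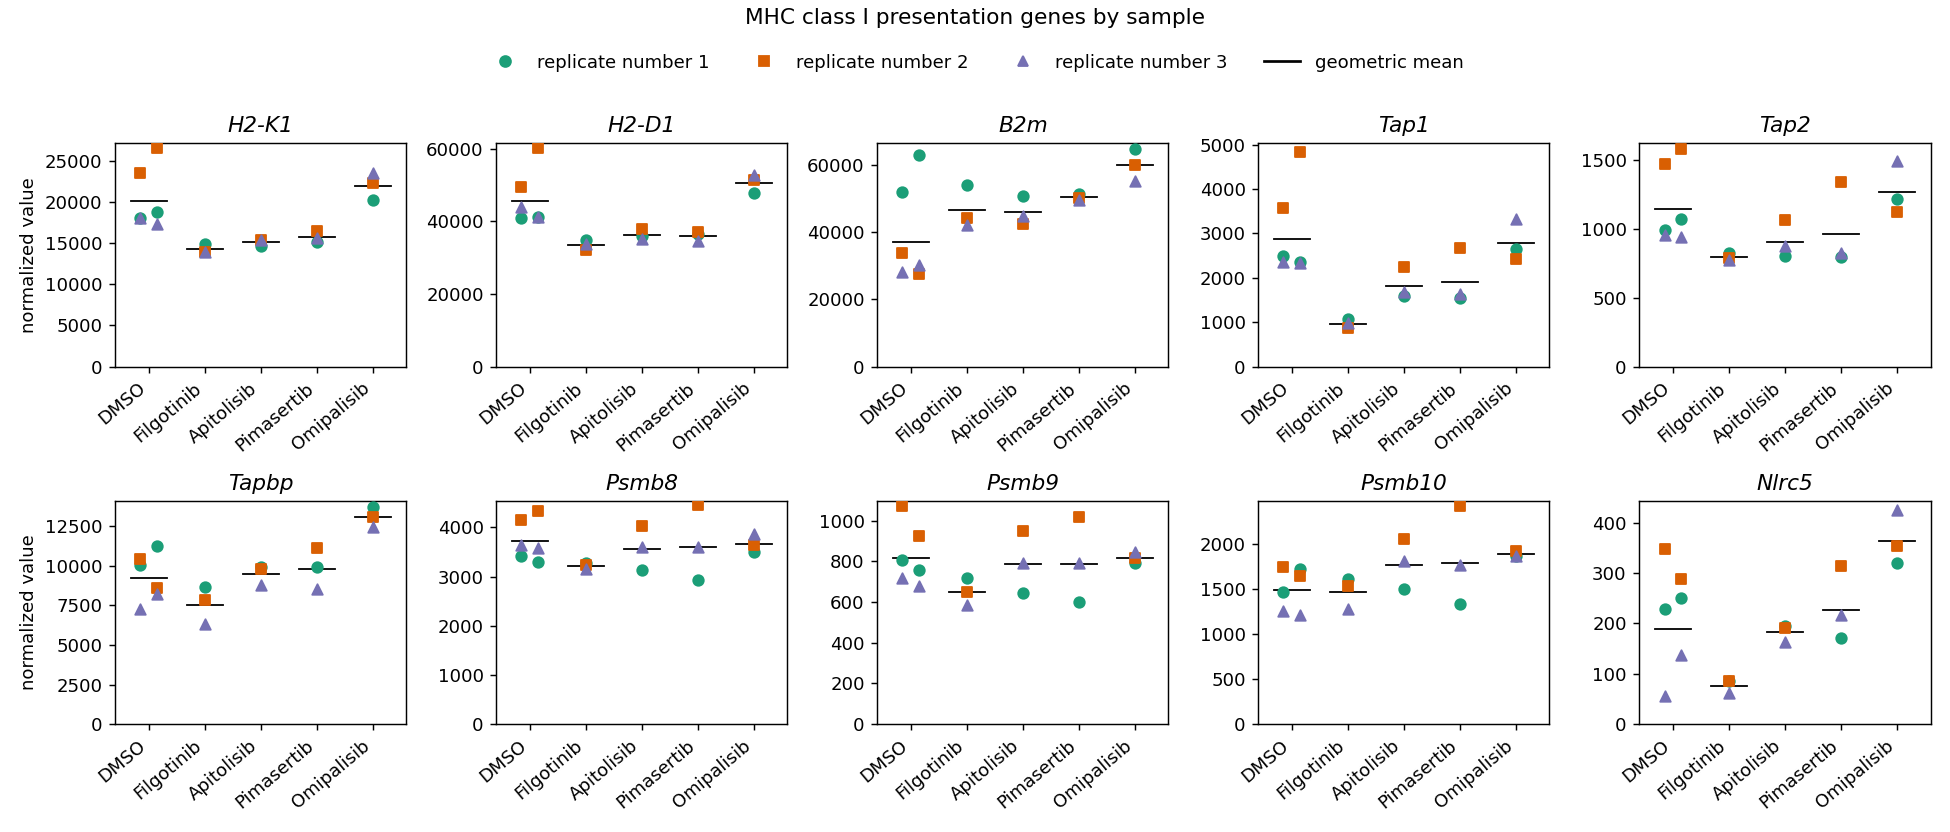
Normalized values (vertical axes, from 0) of each member in the 6 DMSO samples and the 3 samples of each of 4 CKIs, with symbols for replicate numbers, the first DMSO set to the left of the second, and lines for geometric means. *Tap1* reads 872 to 1063 with Filgotinib, below every DMSO sample, while the 3 *Tapbp* values with Omipalisib, 12459 to 13745, lie above all of them.

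Filgotinib was 1 of 6 CKIs of the series developed against JAK, each at its own concentration, so the values stand side by side. *Tap1* was lower with Tofacitinib, the only member called among 0.857% of all genes lower, at 1671, 1530 and 1954 (log2 fold change -0.75, limma, Benjamini-Hochberg adjusted p = 0.0236). That call was lost without the DMSO sample numbered 2 of the second set at -0.60, and without Tofacitinib sample 1 or 2 at -0.73 and -0.67 (limma, adjusted p = 0.107, 0.0869 and 0.193). It was lost too with the mitochondrial share and the replicate block in the fit, at -0.56 (limma, adjusted p = 0.162). *Tap1* read 1898, 1617 and 1676 with Momelotinib, where no member was called and 0.409% of all genes were lower. Its log2 fold change of -0.73 missed the threshold (limma, adjusted p = 0.0808) and passed it in a fit blocked on replicate numbers (adjusted p = 0.0415), and with the samples scaled again at -0.83 (adjusted p = 0.0421).

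With Pacritinib *Tap1* read 1547, 1586 and 2487, and 0 members were called lower by limma against 0.0551% of all genes. Limma's unadjusted p was under 0.05 for 2 members and for 2384 of the 12714 genes. With Ruxolitinib it read 1820, 2367 and 1379. Limma called 0 members and 0% of all genes lower with Ruxolitinib, although the mean standardised level of the members was the second lowest of the 59 conditions. Its unadjusted p with Ruxolitinib was under 0.05 for 2 members and for 590 of the 12714 genes. With BMS911543 *Tap1* read 2276, 2199 and 3173, which overlaps DMSO, and 0 members were called lower by limma against 8.08% of all genes. There the unadjusted p of limma was under 0.05 for 1 member and for 2369 of the 12714 genes. The log2 fold changes of *Tap1* with these 3 CKIs were -0.65, -0.66 and -0.19 with a standard error of 0.21 each. The sign of the last turned without the DMSO samples numbered 2, to 0.08. Differences between the 6 CKIs were not tested.

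Apitolisib and Pimasertib, which inhibit PI3K with mTOR and MEK, each had 3 members lower, the heavy chains and *Tap1*. In the study Apitolisib, named there as an inhibitor of PI3K, had JAK1 as its intended target. The backgrounds were 3.2% of all genes lower with Apitolisib and 5.68% with Pimasertib. *H2-K1* read 14621, 15431 and 15390 with Apitolisib and 15192, 16515 and 15672 with Pimasertib, all below the lowest DMSO value of 17284. The log2 fold changes were -0.41 and -0.35 with a standard error of 0.12 (limma, Benjamini-Hochberg adjusted p = 0.0185 and 0.0246). *H2-D1* had log2 fold changes of -0.33 and -0.34 (limma, adjusted p = 0.0423 and 0.0281), and all 6 samples lay below DMSO. *Tap1* read 1590, 2236 and 1685 with Apitolisib and 1551, 2674 and 1642 with Pimasertib, the last group overlapping DMSO. Its log2 fold changes were -0.66 and -0.60 with a standard error of 0.21 (limma, adjusted p = 0.0285 and 0.0334).

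The median log2 fold change over all genes was 0.11 with Apitolisib and 0.12 with Pimasertib, and with the samples scaled again, which brings it to about 0, all 6 calls were kept. The mitochondrial share was 1.49% to 4.04% in the Apitolisib samples and 3.24% to 4.29% in those of Pimasertib, against 0.76% to 1.94% in DMSO. In a fit with this share and the replicate block all 6 calls were lost. *H2-K1*, *H2-D1* and *Tap1* then stood at -0.25, -0.14 and -0.44 with Apitolisib (limma, adjusted p = 0.243, 0.49 and 0.28). With Pimasertib they stood at -0.13, -0.07 and -0.29 (limma, adjusted p = 0.686, 0.85 and 0.629). Without the DMSO sample numbered 2 of the second set 0 members were called by limma with either CKI, and against the other 57 CKIs 0 as well. Leaving out CKI sample 1 or CKI sample 3 also left 0 called with either, and leaving out the DMSO sample numbered 2 of the first set left 1 with Apitolisib and 0 with Pimasertib. With all samples, limma's unadjusted p was under 0.05 for 4 members with Apitolisib and 3 with Pimasertib. Of the 12714 genes 4253 and 4707 were under it. *B2m* was not called with Pimasertib at a log2 fold change of 0.44, and in the blocked fit it was higher (limma, adjusted p = 0.0188).

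Midostaurin, an inhibitor of many kinases, lowered *Tap1* alone among the members, against 1.93% of all genes. *Tap1* read 1810, 1664 and 1359, all below DMSO, a log2 fold change of -0.84 with a standard error of 0.21 (limma, Benjamini-Hochberg adjusted p = 0.00589). Without the DMSO samples numbered 2 it missed the threshold at -0.58 (limma, adjusted p = 0.174), and without Midostaurin sample 3 at -0.73 (adjusted p = 0.109). The AKT inhibitor MK2206 lowered *H2-K1* alone, against 0.834% of all genes. *H2-K1* read 15102, 13991 and 16203, a log2 fold change of -0.42 (limma, adjusted p = 0.0457), and without the DMSO samples numbered 2 this was -0.26 (adjusted p = 0.341). Leaving out any of 5 single samples also ended this call, 3 of DMSO and MK2206 samples 1 and 2, with limma's adjusted p between 0.0544 and 0.375. With the mitochondrial share and the replicate block in the fit the value was -0.29 (limma, adjusted p = 0.157), and the share was 1.18% to 4.01% in the MK2206 samples.

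**Figure D4:**
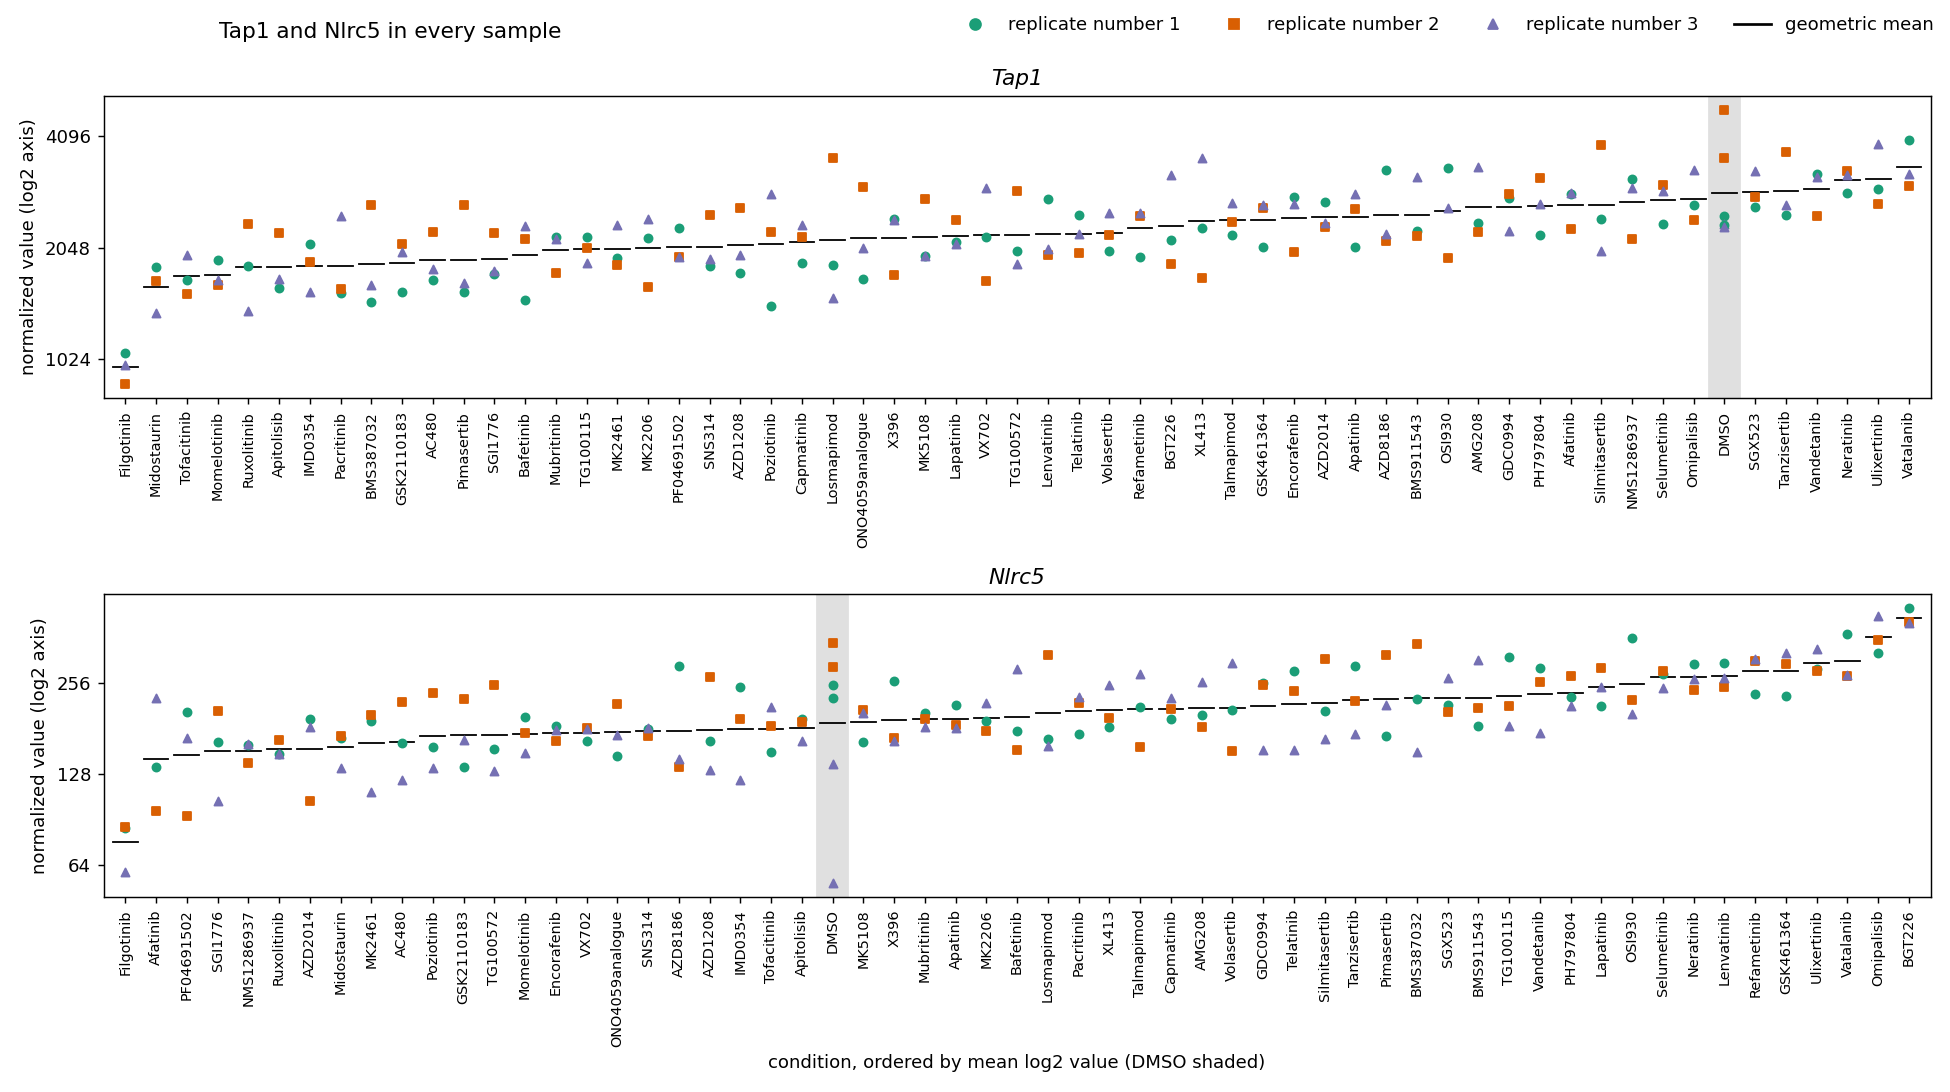
Normalized values of *Tap1* (top) and *Nlrc5* (bottom) in every sample on log2 axes, with conditions ordered by their mean log2 value, symbols for replicate numbers, lines for geometric means and DMSO shaded. Filgotinib stands at the left end of both with 872 to 1063 and 61 to 86, and BGT226 at the right end for *Nlrc5* with 402 to 451.

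Omipalisib, an inhibitor of PI3K and mTOR, raised 3 members, *B2m*, *Tapbp* and *Nlrc5*, against 17.5% of all genes higher. *Tapbp* read 13745, 13087 and 12459, above the highest DMSO value of 11284, against a median of 9345 and a lowest value of 7272. Its log2 fold change was 0.51 with a standard error of 0.16 (limma, Benjamini-Hochberg adjusted p = 0.0103). *Nlrc5* read 320, 353 and 425, of which 2 lay above every DMSO sample, a log2 fold change of 0.95 with a standard error of 0.27 (limma, adjusted p = 0.00563). *B2m* read 64703, 60116 and 55395, of which 1 lay above every DMSO sample, a log2 fold change of 0.69 with a standard error of 0.25 (limma, adjusted p = 0.0335).

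The median over all genes with Omipalisib was 0.12. With the samples scaled again *Tapbp* and *B2m* had log2 fold changes of 0.40 and 0.58 and missed the threshold (limma, adjusted p = 0.0533 and 0.0808), and *Nlrc5* kept its call at 0.84 (adjusted p = 0.0114). Without the DMSO samples numbered 3 limma called 0 members with Omipalisib, and *Nlrc5* stood at 0.40 (adjusted p = 0.308). Without the DMSO sample numbered 3 of the first set alone, which reads 56, *Nlrc5* missed the threshold at 0.60 (limma, adjusted p = 0.0813). *Tapbp* missed it without Omipalisib sample 1, at 0.47 (limma, adjusted p = 0.0602), and *B2m* without any single one of the DMSO samples numbered 2 or 3 or of the Omipalisib samples, at 0.60 to 0.75 (limma, adjusted p between 0.0523 and 0.128). With all samples, 3 members and 4743 of the 12714 genes had an unadjusted p of limma under 0.05. *Tap1*, *Psmb8* and *Psmb9* had log2 fold changes of -0.05, -0.02 and 0.00, and *H2-K1* and *H2-D1* of 0.13 and 0.15.

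BGT226, another inhibitor of PI3K and mTOR, raised *Nlrc5* alone on the values as deposited, against 24.1% of all genes higher. *Nlrc5* read 451, 405 and 402, above every DMSO sample, a log2 fold change of 1.15 with a standard error of 0.27 (limma, Benjamini-Hochberg adjusted p = 4.2e-04). The median over all genes was 0.21, and scaled again the value was 0.95 (limma, adjusted p = 0.00294). The same scaling brought 3 members past the threshold as lower. *Psmb8* went from -0.23 to -0.43 (limma, adjusted p = 0.102 and 0.00166), *H2-K1* from -0.16 to -0.36 (0.304 and 0.0274) and *Psmb9* from -0.16 to -0.36 (0.383 and 0.0306). Without the DMSO samples numbered 3, which were the lowest for *Nlrc5*, it missed the threshold at 0.60 (limma, adjusted p = 0.0813). Lapatinib, which inhibits EGFR and HER2, raised *B2m* alone, at 65553, 59432 and 54900, against 18.1% of all genes. The log2 fold change was 0.69 (limma, adjusted p = 0.0393). Scaled again it was 0.57 (limma, adjusted p = 0.0874), and without any single one of the DMSO samples numbered 2 or 3 or of the Lapatinib samples it missed the threshold at 0.60 to 0.75 (adjusted p between 0.0599 and 0.145). In the same comparison *Psmb10* was higher too in the blocked fit, at 0.46 (limma, adjusted p = 0.0367).

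The block also brought in calls for CKIs without any, where the replicate numbers paired the samples. With Lenvatinib *H2-K1* and *H2-D1* fell by 0.33 on the log2 scale each (limma, adjusted p = 0.0268 and 0.026 with the block). Within replicate numbers the differences were 0.01 and -0.0008 in number 1, -0.69 and -0.60 in number 2, where the DMSO samples stood apart, and -0.30 and -0.38 in number 3. With TG100115 they fell by 0.46 and 0.42 (0.0218 and 0.0227), and with Refametinib *H2-D1* fell by 0.31 (0.0486). Without the block limma's adjusted p lay at 0.0503 and 0.0501, 0.0537 and 0.0563, and 0.121.

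In the order of the 59 conditions the steps were small. Of 58 neighbouring pairs of conditions, the samples of 58 overlapped for 8 members and those of 57 for *Tap1* and *Nlrc5*. The pair without overlap was Filgotinib with the next lowest, Midostaurin for *Tap1* and Afatinib for *Nlrc5*. Filgotinib was the lowest condition for *H2-K1*, *H2-D1*, *Tap1*, *Tap2*, *Psmb9* and *Nlrc5*. Vatalanib was the highest for 6 members, *H2-K1*, *Tap1*, *Tap2*, *Psmb8*, *Psmb9* and *Psmb10*, with all 10 members above the mean of DMSO and none called by limma. *Psmb10*, for example, read 2284, 2092 and 1987 with Vatalanib against 1208, 1549.5 and 1739 in DMSO, a log2 fold change of 0.51 (limma, adjusted p = 0.376). Limma's unadjusted p was under 0.05 for 6 members with Vatalanib and for 1126 of the 12714 genes.

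The members varied together over the conditions and also between samples of a condition, with *B2m* apart from the heavy chains it pairs with. Over the 59 condition means of the log2 values, the 45 pairs of members had a median Pearson correlation of 0.49, and 42 were above 0. The highest were *H2-K1* with *H2-D1* and *Psmb8* with *Psmb9*, at 0.92 each, and *Tap1* with *Tap2*, at 0.79. *B2m* had -0.14 with *H2-D1*, 0.06 with *H2-K1* and -0.02 with *Tap1*, and 0.74 with *Tapbp* and 0.67 with *Psmb10*. Among samples numbered 1, 2 and 3 taken alone the median over pairs was 0.57, 0.41 and 0.59. For the deviations of single samples from their condition mean the median was 0.51, about that over the condition means. In these deviations *H2-K1* with *H2-D1* had 0.90, *Tap1* with *Tap2* 0.88 and *H2-D1* with *B2m* -0.35. The pattern is thus not particular to differences between CKIs.

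The points share libraries, depth and scaling, so these are descriptions. The median correlation was 0.60 with the samples scaled again. The mitochondrial share correlated with the heavy chains at -0.50 for *H2-K1* and -0.62 for *H2-D1* over the condition means and at 0.53 with *B2m*, and its part in the pattern was not tested. *H2-K1* and *H2-D1* also share sequence. Of the 51-base windows in their GENCODE vM21 transcripts, 320 of 3470 and 315 of 2591 occur in transcripts of other genes, 132 of them shared between the pair. The alignment kept 1 position per read, so the split of reads among class I genes is uncertain for these 2. *B2m*, *Psmb9*, *Psmb10* and *Nlrc5* had 0 shared windows.

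**Figure D5:**
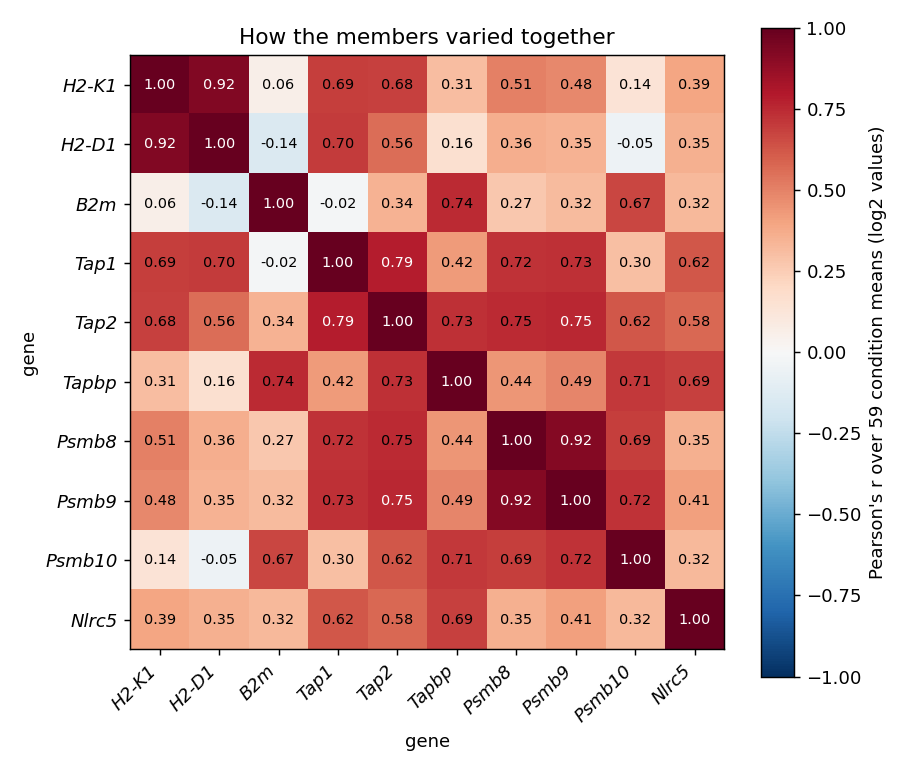
Pearson correlation (color and number) between each pair of members over the 59 condition means of the log2 values. The pairs *H2-K1* with *H2-D1* and *Psmb8* with *Psmb9* reach 0.92, and *B2m* is near 0 with *H2-K1*, *H2-D1* and *Tap1*.

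Among 12704 other genes, the mean standardised profile of the members over the 59 condition means correlated best with *Usp18*, at 0.94, followed by *Irf7* at 0.92, *Herc6* at 0.88, *Il27* at 0.87, *Tor1aip1* at 0.86 and *Gbp6* at 0.86. Without the 2 conditions farthest from the median the values were 0.92, 0.90, 0.85, 0.84, 0.81 and 0.83. *Usp18*, which encodes a protease that removes ISG15, read 890, 619 and 838 with Filgotinib against 1492, 2181 and 2630 as lowest, median and highest in DMSO. *Il27*, a subunit of the cytokine IL-27, read 1041, 708 and 860 against 2190, 3810 and 5488. *Irf7*, a transcription factor of the interferon response, read 3240, 2568 and 1777 against 2329, 4023.5 and 4647 and so overlapped DMSO.

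The genes around the members in the pathway were counted by list. In the list of 5 interferon genes (*Ifnb1* and the receptor chains *Ifnar1*, *Ifnar2*, *Ifngr1* and *Ifngr2*), 28 of 290 comparisons were lower and 12 higher. Among 13 tested regulators of 14 listed, 17 of 754 were lower and 19 higher. In the list of 6 proteasome genes 5 of 348 were lower and 15 higher. In the 5 genes of peptide loading and trimming 0 of 290 were lower by limma and 3 higher, and in the 13 tested of 20 other class I genes 3 of 754 were lower and 16 higher. The median log2 fold change of these lists was -0.16, -0.03, 0.11, 0.04 and 0.09, against 0.08 for the median of all genes. As shares, 9.66%, 2.25%, 1.44%, 0% and 0.398% were lower, against 1.65% over all genes and CKIs, and 4.14%, 2.52%, 4.31%, 1.03% and 2.12% were higher, against 2.52%. The shares of the regulators thus lay near those of all genes.

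*Irf1*, a transcription factor that binds interferon response elements, was lower with 5 CKIs and higher with 1. It read 6994, 5416 and 7310 with Filgotinib, against 10687, 11919.5 and 14275 as lowest, median and highest in DMSO, a log2 fold change of -0.89 (limma, adjusted p = 1.23e-04). It was lower also with Midostaurin at -1.06, Momelotinib at -0.80, Pimasertib at -0.74 and Apitolisib at -0.62, and higher with BGT226 at 0.58. All these comparisons share the DMSO samples.

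*Ifnb1*, which encodes interferon beta, was higher with 9 CKIs and lower with 1. It read 233, 183 and 137 with Filgotinib, within the DMSO range of 75 to 262, a log2 fold change of 0.71 (limma, adjusted p = 0.196). It read 1727, 2207 and 726 with Omipalisib, above every DMSO sample, a log2 fold change of 3.67 (limma, adjusted p = 1.37e-13), where *Tap1* stood at -0.05. It was higher with Apitolisib at 1.15, Pimasertib at 1.35 and Tofacitinib at 1.45, CKIs with which *Tap1* was lower. It read 11, 7 and 12 with Midostaurin, the only CKI with which it was called lower, where it fell by 3.36 on the log2 scale (limma, adjusted p = 1.12e-10). With Momelotinib it read 55, 65 and 58, below every DMSO sample, and its log2 fold change of -0.87 missed the threshold (limma, adjusted p = 0.414).

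The receptor chain *Ifnar1* was lower with 10 CKIs, among them Filgotinib at -0.49, Omipalisib at -0.72 and Pimasertib at -0.82. *Ifngr2* was lower with 7 CKIs, and *Ifngr1* was lower with 6 and higher with 3. Of the 13 other class I genes tested 3 (23.1%) fell with Filgotinib, against 14.6% of all genes lower with this CKI. They were *H2-K2*, *H2-Q6* and *H2-Q7*, of which the first and the last are named after their values were seen. *H2-Q6* read 142, 147 and 152 against 254, 296.5 and 338 in DMSO, a fold change of 0.499 (limma, adjusted p = 2.69e-08). It was higher with 5 CKIs, among them BGT226 at 0.80, Vatalanib at 0.63 and Omipalisib at 0.62. These genes share sequence with the heavy chains, so the split of reads among them is uncertain.

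Of the constitutive proteasome subunits, those that the members replace, *Psmb6*, the counterpart of *Psmb9*, was higher with 7 CKIs and lower with none. *Psmb7*, the counterpart of *Psmb10*, was higher with 7, among them Filgotinib, where it read 1048, 1187 and 971 against 393, 627 and 896 in DMSO, a log2 fold change of 0.75 (limma, adjusted p = 0.0222). *Psmb5*, the counterpart of *Psmb8*, was lower with BGT226 alone, at -0.35 (limma, adjusted p = 0.0305). The log2 ratio of the 3 immunoproteasome subunits to these 3, per kilobase of exon, was -0.21 ± 0.24 (SD, n = 6) in DMSO. It lay between -0.70 ± 0.15 (SD, n = 3) with Filgotinib, the lowest of the 59 conditions, and -0.08 ± 0.23 (SD, n = 3) with Vatalanib, the highest. Among CKIs only Neratinib, Ulixertinib and Vatalanib lay above DMSO, so a ratio below DMSO was not particular to Filgotinib. With Midostaurin it was -0.64 ± 0.17 (SD, n = 3), and its samples overlapped those of Filgotinib. Differences in this ratio were not tested.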

How the data were processed

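The deposited values are a score: the authors aligned 51-base reads of SMART-seq2 poly(A) libraries to mm10 with TopHat2 2.1.1, keeping 1 alignment per read, removed blacklisted regions with bedtools 2.29.2, counted reads on exons of curated RefSeq genes, scaled samples on invariant genes and rounded. The methods name paired-end sequencing but single-end mapping. The values are not counts, so depth is unknown, and the DESeq2 test the study used was not run. The counting is not stated to use strand, so *Tapbp*, which overlaps *Gm19412* on the other strand, is uncertain. Columns without a sample numbered 0, and samples of a group differed in at least 12421 genes, so none was a copy.

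Members and lists were chosen with earlier results of these data known. Groups came from the labels. limma 3.58.1 in R 4.3.3 was fitted to log2(value + 1) with a variance trend over 59 groups, for the 12714 genes with a mean of at least 10, with Benjamini-Hochberg adjustment over these genes for each CKI and a threshold of 0.05. In simulated data for Filgotinib on 12714 genes it found 22% of genes changed by a log2 of 0.5, 68% at 1 and 96% at 2, with 6 unchanged genes called. The simulated noise was independent between genes and samples and held no DMSO samples that stood apart. These rates thus do not cover shifts like those of the DMSO samples numbered 2. Named besides the members were up to 8 list genes called with the most CKIs, *Irf1*, *Ifnb1*, *Psmb5*, *Psmb6* and *Psmb7*, the 6 genes most correlated with the members, and CKIs with 3 or more members called in 1 direction, with the JAK inhibitors and Midostaurin given whatever their result; some genes that this rule names are not reported here.

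Replicate numbers come from the labels. For 34 of 58 CKIs all 3 same-numbered pairs of CKI and DMSO samples had correlated deviations over 0.1, which was taken as pairing there. Over all CKIs the mean was 0.226 for equal and -0.113 for unequal numbers. P-values measure the spread between these samples. Alternatives were pseudocounts of 0.5 and 10, no filter or a mean of 50, a median-of-ratios scaling, no variance trend, the replicate block alone or with the mitochondrial share, each DMSO set, the other 57 CKIs as reference, a fit of the compared groups alone, and samples left out. Leaving out both DMSO samples of a number was added after seeing the data. Promoter letters were searched with Python 3.11.15 and figures drawn with matplotlib 3.10.9.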

Additional observations from a re-analysis of the deposited data

How the results depend on the processing

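Counts are members at limma's adjusted p under 0.05, to be read against 14 lower and 5 higher over all CKIs, 5 lower with Filgotinib, 3 lower with Apitolisib, 3 lower with Pimasertib and 3 higher with Omipalisib. No filter on low values gave 3 higher over all CKIs, 1 lower with Apitolisib and 0 with Pimasertib. Median-of-ratios scaling gave 23 lower and 2 higher over all, 1 higher with Omipalisib, and a median correlation between members of 0.603. The replicate block gave 23 lower and 14 higher, and for paired comparisons it changed no call other than those given with the results. In the comparisons not taken as paired it added 10 calls and removed 0. The mitochondrial share with the block gave 9 lower and 9 higher, and 0 lower with Apitolisib and Pimasertib. Over all genes and CKIs the shares lower and higher were 3.08% and 4.6% with the block alone. With the mitochondrial share too they were 2.26% and 1.94%, and there the members' share of lower calls was under that of all genes. DMSO set 1 alone gave 4 lower and 3 higher, and set 2 alone 6 lower and 2 higher, with 0 lower with Apitolisib and Pimasertib in either and 1 higher with Omipalisib in set 2. Over all genes and CKIs the shares were 0.86% and 1.17% with set 1 and 1.22% and 1.2% with set 2. With the other 57 CKIs as reference there were 6 lower and 9 higher, and 0 lower with Apitolisib and Pimasertib. The compared groups fitted alone gave 1 lower and 1 higher over all, 1 lower with Filgotinib, 0 with Apitolisib and Pimasertib and 1 higher with Omipalisib. For these fits the share of all genes called was not recorded. Leaving out samples gave 2 to 33 lower and 0 to 14 higher over all, 2 to 6 lower with Filgotinib, 0 to 3 with Apitolisib and Pimasertib, 0 to 3 higher with Omipalisib, and 2 to 5 members in the F test. The 33 lower and 14 higher came without both DMSO samples numbered 1, where 2.8% of all genes were lower and 5.5% higher. The log2 fold change of *Tap1* with BMS911543 was -0.19 and turned to 0.174 with the other CKIs as reference, and lay between -0.504 and 0.172 with samples left out, 0.0751 without both DMSO samples numbered 2. Of the other fold changes put through the alternatives, none changed sign. The split over all CKIs did turn, to 2 lower and 5 higher without both DMSO samples numbered 2. It turned to 2 lower and 3 higher without all samples numbered 2, and to 6 lower and 9 higher with the other 57 CKIs as reference. The shares of all genes lower and higher in these fits were, in order, 0.809% and 1.02%, 0.512% and 0.648%, and 1.54% and 1.12%. With all samples and DMSO as reference they were 1.65% and 2.52%, so calls over all genes dropped as well. The cause of these changes was not tested. With no counts, depth sets no limit that could be given.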
